A study of Mus musculus with 31 samples.

Results

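Ly6C-high monocytes carried 148 genes, of the 24411 entries of the count table, that were lower in the blood of tumor-bearing mice than in the blood of healthy mice and higher again inside the tumor. RNA-seq libraries, 9 in number, were made from cells of C57BL/6J mice: 3 from healthy animals' blood (healthy blood), 3 from the blood of mice carrying subcutaneous Lewis lung carcinoma tumors (LLC blood; LLC is a transplantable mouse lung tumor line) and 3 from the LLC tumors themselves (LLC tumor). In all 3 groups the cells were sorted as CD11b+ Ly6G- Ly6Chi MHC-II-, no genotype or treatment other than the tumor is named, and the labels give neither an age nor whether blood and tumor came from the same mice. Nothing in the labels says that the libraries of a group come from separate animals, so the p-values measure only the spread between these libraries, which may be technical.

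Members were chosen on CPM, the counts of a gene scaled to the total of its library. A member had a mean of at least 10 CPM in LLC tumor, a ratio of LLC blood to healthy blood of at most 0.67 and a ratio of LLC tumor to LLC blood of at least 1.5, each ratio taken on mean CPM + 1, and every LLC blood library lay below every healthy blood and every tumor library. The fall in blood and the rise in tumor are therefore how the genes were picked, and they are described here without a test. The blood conditions alone were met by 733 genes, of which 310 reached 10 CPM in the tumor. The 148 members are part of those 310; of the other 162, 95 had a tumor mean below that of LLC blood and 67 had one at or above it without meeting the remaining conditions. All 148 members passed the low-count filter that kept 12337 genes for testing.

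Ly6C-high monocytes are the classical monocytes of the mouse: they leave the bone marrow, circulate for a short time and enter inflamed tissue and tumors, where they turn into macrophages. Of the members, 2 are in the list of AP-1 factors, 9 in that of other immediate early genes and 4 in that of NF-kB subunits and inhibitors, while 94 are in none of the lists used. Immediate early genes, which encode AP-1 and EGR transcription factors and labile regulators, are switched on without new protein synthesis, and the transcription factor NF-kB switches on chemokines, cytokines, survival genes and its own inhibitors, which close the loop. Other members are known from tissue macrophages, such as the complement C1q subunits and the mannose receptor Mrc1.

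Summed sorting markers reached 5927 to 7294 CPM in all 9 libraries. The list behind this sum names Ly6g, but that gene was not found among the entries of the count table and adds nothing to the sum. The sum does hold the MHC class II genes H2-Aa, H2-Ab1 and H2-Eb1, which the sort selected against. A high sum is therefore no check on the sort. Ly6c2 encodes the sorting antigen. It was at 1571 to 1728 CPM in healthy blood, 1099 to 1237 CPM in LLC blood and 272.4 to 472.5 CPM in LLC tumor. Library totals ranged from 10457492 to 20706412 counts. Markers of other cells moved with the groups. Summed fibroblast markers were at 29.6 to 58.9 CPM in healthy blood, 6.57 and 7.82 CPM in LLC blood 2 and 3, 473.2 CPM in LLC blood 1 and 1032 to 4375 CPM in LLC tumor. Summed NK cell markers ranged from 266.9 to 590.4 CPM over the healthy blood libraries but from 44.3 to 70.7 CPM over those of LLC blood, and T cell markers other than the member Il7r at 67 to 274.7 CPM and 19.6 to 23.7 CPM; their part in the blood levels of the members was not tested. Summed LLC tumor cell markers were at 124.1 to 139.4 CPM in healthy blood, 110.9 to 113.3 CPM in LLC blood and 2178 to 2475 CPM in LLC tumor. In the same order, endothelial markers were at 46.9 to 54.1, 25.6 to 28.2 and 63.6 to 82.6 CPM, and dendritic cell markers at 228.9 to 248.8, 128.6 to 163.4 and 141.5 to 242.6 CPM. The median of each of these 3 sums was lowest in LLC blood. For dendritic cell markers, however, LLC tumor 2 (141.5 CPM) lay below LLC blood 1 (163.4 CPM), an overlap that the rule excludes for the members. The part of these cells in the members' levels was not tested. In these bulk samples, fewer cells of a type and less RNA per cell cannot be told apart.

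The members together took 1.01% to 1.17% of all counts in healthy blood, 0.675%, 0.442% and 0.451% in LLC blood 1, 2 and 3, and 2.21% to 2.94% in LLC tumor. The median ratio of LLC blood to healthy blood was 0.537 over the 148 members (range 0.163 to 0.666), and that of LLC tumor to LLC blood was 6.41 (range 1.53 to 236.5). The fit across all genes (edgeR quasi-likelihood, adjusted p under 0.05) called 103 members lower in LLC than in healthy blood, against 9.61% of all genes tested, and all 148 higher in LLC tumor than in LLC blood, against 29.6% of all genes tested. Since the rule used both of these comparisons, nothing is read from those counts; 45 members met the rule without being called in blood. The count in blood was 51 in the fit without LLC blood 2 and 54 in the fit without LLC blood 3.

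The rule did not set the order of LLC tumor and healthy blood. In that comparison the same fit called 117 members higher in the tumor (33.5% of all genes tested were called higher), 1 lower, namely Eno1b (33.0% of all genes), and 30 not. All tumor libraries lay above all healthy blood libraries for 103 members (26.9% of all genes), below them for 1 (43.7%), and the groups overlapped for 44. The median ratio of LLC tumor to healthy blood was 2.95, the ratio was over 2 for 94 members and over 10 for 27, and it was under 1 for 8. The libraries are the same ones that chose the members, and the floor on the tumor level and on the tumor ratio favours high tumor values, so the shares of members and of all genes are set side by side and not tested against each other.

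**Figure D1:**
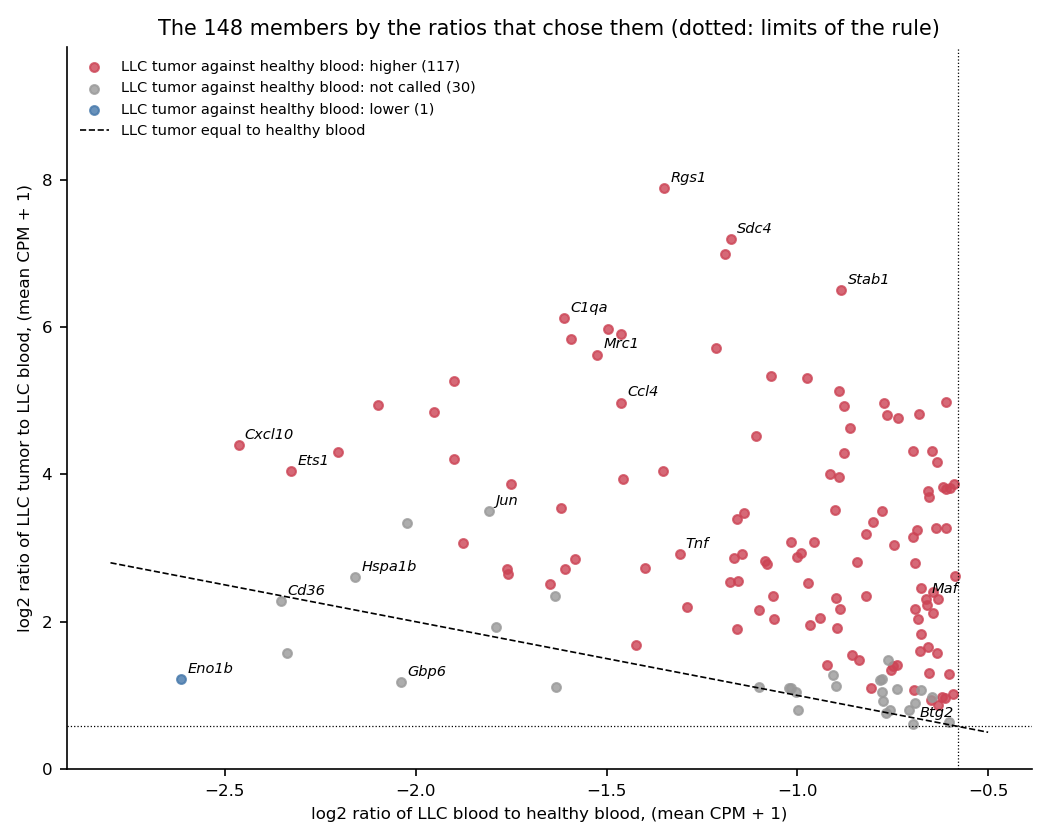
Each point is 1 of the 148 members; the horizontal axis is the log2 ratio of LLC blood to healthy blood and the vertical axis the log2 ratio of LLC tumor to LLC blood, both on mean CPM + 1, with the limits of the rule dotted. Points above the dashed line were higher in LLC tumor than in healthy blood; red points (117) were called higher there, grey points (30) were not called and the blue point is Eno1b.

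Transcription factors of the immediate early class were among the members with the highest levels. Jun, the core subunit of AP-1, was at 592.7, 413.8 and 411.6 CPM in healthy blood 1, 2 and 3, at 377.9, 15.1 and 10.0 CPM in LLC blood, and at 1443, 1566 and 1582 CPM in LLC tumor. The groups did not overlap, but the LLC blood libraries differed widely: LLC blood 1 was close to healthy blood and the other two were far below it. The log2 fold change of LLC tumor against healthy blood was 1.87 ± 1.08 (SE) and not called (adjusted p = 0.152, edgeR), although tumor and healthy blood libraries were each close together; in the fit without LLC blood 1, whose spread enters the estimate of the error, the adjusted p was 5.48e-05. Jund, another AP-1 subunit, was at 240.6, 182.9 and 162.4 CPM in healthy blood, 138.0, 88.6 and 77.1 CPM in LLC blood and 454.5, 439.5 and 372.3 CPM in LLC tumor, and it rose in the tumor over healthy blood (log2 fold change 1.30 ± 0.24, adjusted p = 0.00105).

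Egr1, a zinc finger factor induced by growth factor and MAP kinase signals, was at 39.4, 26.9 and 32.8 CPM in healthy blood, 11.6, 2.97 and 4.59 CPM in LLC blood and 88.3, 213.5 and 130.8 CPM in LLC tumor. Nab2, a corepressor that binds EGR proteins and is itself induced by them, was at 23.9, 19.2 and 23.6 CPM, then 6.60, 6.85 and 6.23 CPM, then 80.1, 86.2 and 94.7 CPM in the same order. Both rose in the tumor over healthy blood, by a log2 fold change of 2.26 ± 0.39 (adjusted p = 0.000688) for Egr1 and 2.14 ± 0.11 (adjusted p = 4.02e-07) for Nab2. The LLC blood libraries of Nab2, unlike those of Egr1, lay within 0.62 CPM of each other.

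Of the 9 members in the immediate early list, 7 were called higher in LLC tumor than in healthy blood. The other 2, Btg2 and Ier5, were not called. Over all 148 members 117 were called higher there, and 33.5% of all genes tested. The count of 7 thus does not set the immediate early members apart from the other members. Plk3, a stress-response kinase, was at 10.7, 10.9 and 12 CPM in healthy blood, 6.12, 5.46 and 4.83 CPM in LLC blood and 102.9, 98.3 and 108.4 CPM in LLC tumor, a rise over healthy blood of 3.39 ± 0.13 on the log2 scale (adjusted p = 1.33e-07). Gadd45g (growth arrest and stress signalling), Nr4a3 (an orphan nuclear receptor), Pim3 (a survival kinase), Rhob (a small GTPase) and Sik1 (a salt-inducible kinase) also passed the test, rising over healthy blood by log2 fold changes of 3.59, 3.18, 2.20, 1.55 and 0.84. Nr4a3 was at 2.26 without LLC tumor 1, and Sik1 lost its call without healthy blood 2, healthy blood 3 or LLC tumor 1. Btg2, an antiproliferative gene, came back only to its healthy level: it was at 304.9, 271.9 and 265.5 CPM, then 204.9, 145.5 and 168.5 CPM, then 276.4, 275.7 and 244.8 CPM, with overlapping tumor and healthy libraries and a log2 fold change of 0.10 ± 0.15 (adjusted p = 0.563). Ier5 was at 362.9, 356.9 and 350.3 CPM in healthy blood, 310.5, 162.9 and 147.2 CPM in LLC blood and 620.3, 392.1 and 423.2 CPM in LLC tumor; the groups did not overlap, and the change over healthy blood was not called (log2 fold change 0.63 ± 0.31, adjusted p = 0.101). It was called without LLC blood 1 (adjusted p = 0.0393) and with DESeq2. Its adjusted p ranged from 0.0393 to 0.442 over all alternatives.

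Zfp36 encodes tristetraprolin, which binds AU-rich elements and speeds the decay of Tnf and other inflammatory mRNAs. It was at 808.3, 668.0 and 628.1 CPM in healthy blood, 609.5, 281.2 and 238.2 CPM in LLC blood and 1477, 1410 and 1379 CPM in LLC tumor, and rose in the tumor over healthy blood by 1.20 ± 0.32 on the log2 scale (adjusted p = 0.00777). LLC blood 1 again lay just under the healthy range. The serum response element, the site of serum response factor at many immediate early genes, was found in 3 members with a promoter entry. That was 2.83% of them, against 1.35% of genes tested. The other members with it, Blvrb and Cbr2, are not in the immediate early list. The 250 bases before the start of Zfp36 are shown because they hold the element, which is in capitals. They read as follows on the minus strand of GRCm38.p6 (chr7:28379229-28379478, RefSeq).
Zfp36: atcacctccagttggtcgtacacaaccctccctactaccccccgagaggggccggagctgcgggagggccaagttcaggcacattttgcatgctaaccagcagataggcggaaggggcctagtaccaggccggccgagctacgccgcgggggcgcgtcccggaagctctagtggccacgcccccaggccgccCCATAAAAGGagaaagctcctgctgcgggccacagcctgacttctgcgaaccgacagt

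Of the wider immediate early list, 9 of 32 genes are members, and of the 15 AP-1 genes 2 are. Over all 32 genes of the former list, 9 were called lower and 1 higher in LLC than in healthy blood (median log2 fold change -0.56), and 24 were called higher and 2 lower in LLC tumor than in healthy blood (median 2.17). The 15 AP-1 genes had 3 called lower and 1 higher in LLC blood (median -0.52) and 10 higher and 3 lower in LLC tumor than in healthy blood (median 1.39). Over all genes tested both medians were near 0 (-0.01 in blood and -0.00 for tumor against healthy blood). Well-known genes of the class, namely Fos, Fosb, Junb, Atf3 and Dusp1, are not members. Fos was at 1209, 777.1 and 815.1 CPM in healthy blood, 943.5, 377.3 and 330.4 CPM in LLC blood and 1816, 2691 and 2073 CPM in LLC tumor, so that LLC blood 1 overlapped healthy blood.

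**Figure D2:**
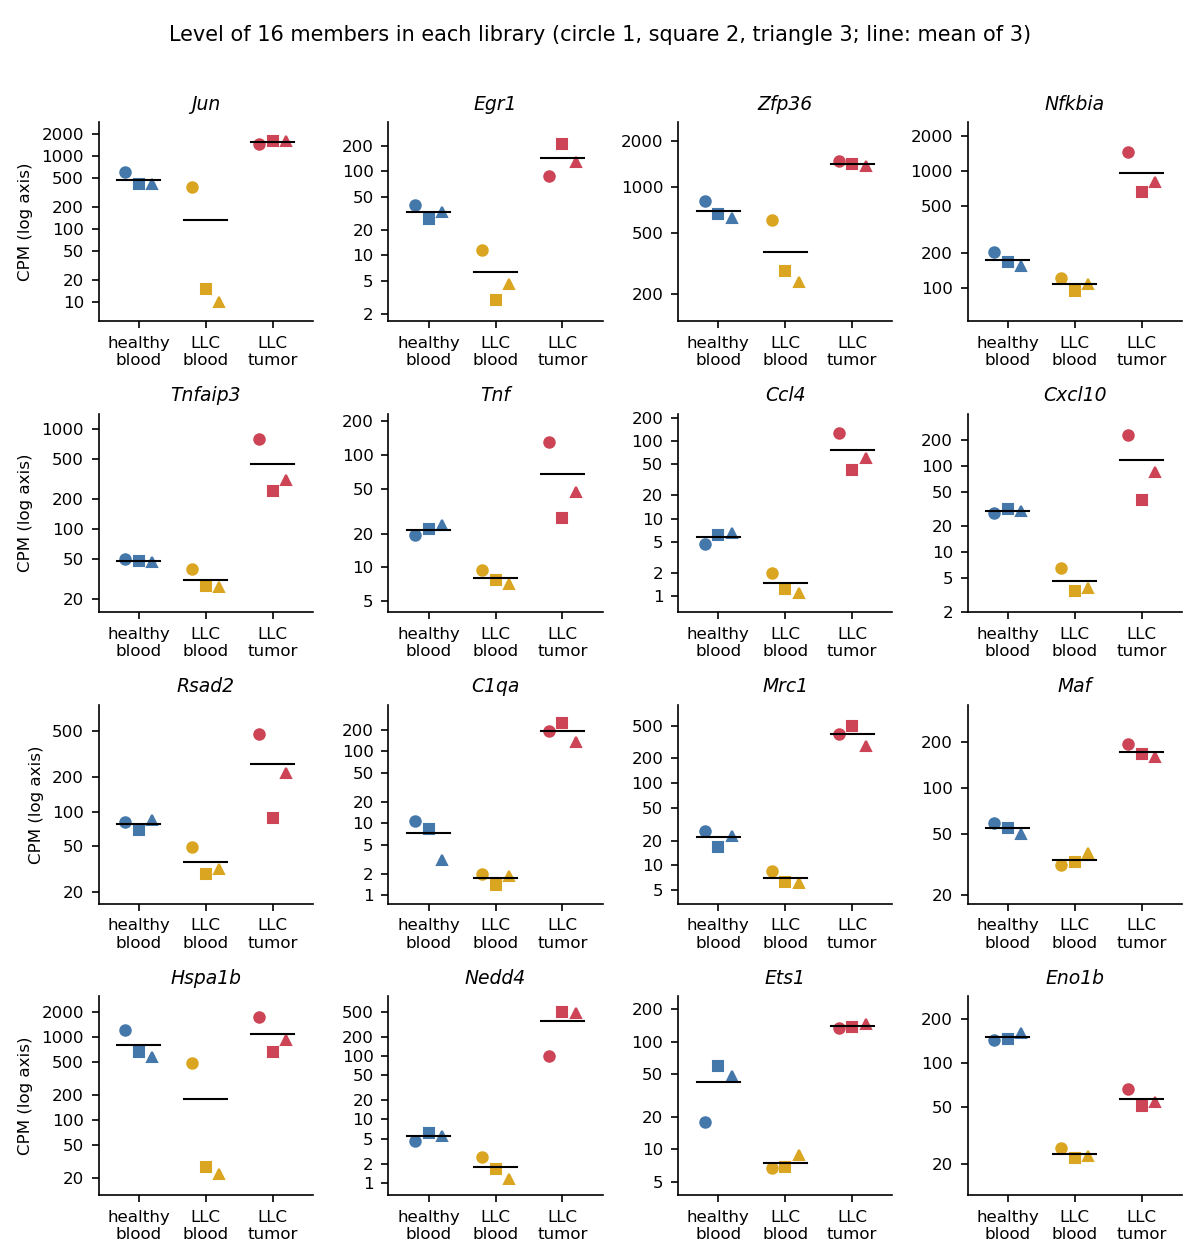
CPM (log axis) of 16 members in each of the 9 libraries; circles, squares and triangles are libraries 1, 2 and 3 of a group and the line is the mean of 3. LLC blood lies lowest in each panel; Jun, Zfp36 and Hspa1b have LLC blood 1 well above LLC blood 2 and 3, and Eno1b is the member whose tumor libraries all lie below healthy blood.

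Feedback inhibitors of NF-kB were a second group. Nfkbia encodes IkB-alpha, the inhibitor that NF-kB induces to end its own signal. It was at 204.9, 167.6 and 154.3 CPM in healthy blood, 121.7, 94.3 and 107.6 CPM in LLC blood and 1445, 657.0 and 803.2 CPM in LLC tumor, a rise over healthy blood of 2.69 ± 0.35 on the log2 scale (adjusted p = 0.000106). Tnfaip3, the ubiquitin-editing enzyme A20, was at 50.4, 47.7 and 47.1 CPM, then 40.5, 26.9 and 26.6 CPM, then 792.5, 242.3 and 310.9 CPM, a rise of 3.47 ± 0.49 (adjusted p = 0.000202). For both genes no tumor library overlapped either blood group, and LLC tumor 1 was the highest library by far. Without LLC tumor 1 the log2 fold change of Tnfaip3 was 2.57.

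Nfkbie, which encodes IkB-epsilon, came back to just above its healthy level: 65.6, 70.0 and 58.5 CPM in healthy blood, 45.0, 35.6 and 38.2 CPM in LLC blood and 86.1, 78.9 and 87.2 CPM in LLC tumor (log2 fold change over healthy blood 0.56 ± 0.13, adjusted p = 0.00448). Traf1, an adaptor of TNF receptors, was at 8.72, 11.8 and 13.2 CPM, then 7.36, 4.84 and 4.64 CPM, then 32.9, 23.1 and 30.2 CPM (1.55 ± 0.25, adjusted p = 0.000454). These 4 genes are the members among 23 NF-kB subunits and feedback inhibitors, and they enter the counts of that list. In LLC against healthy blood, 6 of the 23 were called lower, 2 higher and 15 not (median -0.13). Of all genes tested, 9.61% were called lower there. In LLC tumor against LLC blood, 10 were called higher and 7 lower (median 0.26), where 29.6% of all genes tested were called higher. In LLC tumor against healthy blood, 9 were called higher and 6 lower (median -0.08), where 33.5% of all genes tested were called higher and 33.0% lower.

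Promoter sequence was read for the 106 members that have an entry in the RefSeq promoter table of GRCm38.p6, over the 250 bases before each start. The NF-kB motif was found in 21 of them (19.8%), against 10.5% of the 9817 tested genes with an entry, and the AP-1 motif TGANTCA in 16 (15.1%), against 5.51%; both strands were searched, with N for any base. Members had slightly more starts per gene (1.35 against 1.27), and counted per window the shares were 16.8% of 143 against 8.86% of 12444 for NF-kB and 11.9% against 4.56% for AP-1. Of the 16 genes with the AP-1 motif, 3 are the near-identical Bcl2a1a, Bcl2a1b and Bcl2a1d. The PU.1 motif GAGGAAGT was found in 7 members (6.60% against 3.26%), of which 3 are the same Bcl2a1 genes. The interferon-stimulated response element was found in 4 (3.77% against 3.39%), the TATA motif TATAAA in 14 (13.2% against 7.9%) and the E-box CACGTG in 10 (9.43% against 9.92%). The cAMP element TGACGTCA was found in 1 (0.943% against 2.98%), and the heat shock element and the C/EBP motif TTGCGCAA in 0 (against 0.448% and 0.285%). These are matches of letters, described without a test.

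The windows of the NF-kB inhibitors Nfkbia (chr12:55492648-55492897, minus strand), Nfkbie (chr17:45555450-45555699, plus strand) and Tnfaip3 (chr10:19015411-19015660, minus strand, 1 of its 2 windows), and of Tnfrsf9, the costimulatory receptor 4-1BB (chr4:150927749-150927998, plus strand, 1 of 2), are shown because each holds NF-kB matches and 3 of the 4 also hold AP-1. Capitals mark every motif searched. In Nfkbia the NF-kB match starts 29 bases before the start; in Nfkbie the AP-1 match lies at 156 and the NF-kB match at 106 bases; in Tnfaip3, AP-1 lies at 136 and NF-kB at 125 and 12 bases, beside an E-box and a TATA match; in Tnfrsf9, AP-1 lies at 15 bases and 2 overlapping NF-kB matches at 43 and 42.
Nfkbia: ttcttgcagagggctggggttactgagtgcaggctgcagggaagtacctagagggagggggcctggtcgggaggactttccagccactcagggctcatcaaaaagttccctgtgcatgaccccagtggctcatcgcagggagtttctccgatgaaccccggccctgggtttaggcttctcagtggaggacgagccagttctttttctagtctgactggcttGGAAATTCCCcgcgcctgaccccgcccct
Nfkbie: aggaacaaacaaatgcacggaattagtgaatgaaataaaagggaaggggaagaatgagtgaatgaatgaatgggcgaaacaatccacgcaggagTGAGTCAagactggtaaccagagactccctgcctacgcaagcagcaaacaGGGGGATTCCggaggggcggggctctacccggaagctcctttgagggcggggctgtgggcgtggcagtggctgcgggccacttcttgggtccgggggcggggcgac
Tnfaip3: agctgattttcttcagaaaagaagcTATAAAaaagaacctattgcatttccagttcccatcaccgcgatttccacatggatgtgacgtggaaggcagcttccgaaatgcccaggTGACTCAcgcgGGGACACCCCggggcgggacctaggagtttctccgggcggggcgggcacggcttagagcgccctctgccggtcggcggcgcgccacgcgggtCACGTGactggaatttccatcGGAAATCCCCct
Tnfrsf9: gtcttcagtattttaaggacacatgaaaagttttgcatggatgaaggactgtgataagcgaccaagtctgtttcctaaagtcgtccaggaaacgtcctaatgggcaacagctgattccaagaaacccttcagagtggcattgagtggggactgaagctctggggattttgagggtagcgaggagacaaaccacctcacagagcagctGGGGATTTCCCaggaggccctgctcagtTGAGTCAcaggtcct

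Of the surface receptors and survival genes that NF-kB is known to induce, Tnfrsf9 was at 2.86, 2.09 and 3.19 CPM in healthy blood, 0.765, 0.623 and 0.918 CPM in LLC blood and 74.2, 76.8 and 59.6 CPM in LLC tumor (log2 fold change over healthy blood 4.87 ± 0.21, adjusted p = 2.16e-07). Cd83, a marker of activated antigen-presenting cells, was at 11.3, 12.3 and 12 CPM, then 3.16, 1.11 and 2.70 CPM, then 168.7, 58.8 and 55.1 CPM (3.24 ± 0.52, adjusted p = 0.000439). Cd69, an early activation receptor, was at 17.9, 18.9 and 15.5 CPM, then 7.84, 8.85 and 12.9 CPM, then 53.5, 14.4 and 19.8 CPM. Tumor and healthy libraries overlapped for Cd69, whose change was not called (1.00 ± 0.49, adjusted p = 0.0966), while Tnfrsf9 and Cd83 stood clear of healthy blood in every tumor library. Without LLC tumor 1 the log2 fold changes of Cd83 and Cd69 were 2.31 and 0.02. Cd69 was called without LLC tumor 2 (adjusted p = 0.0191) and with DESeq2. The adjusted p of Cd69 ranged from 0.0191 to 0.924 over all alternatives.

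The Bcl2a1 genes encode A1, an antiapoptotic BCL2 protein, in near-identical copies, and their counts were not whole numbers in all 9 libraries, so how reads were split among them is uncertain. Bcl2a1b was at 16.3, 26.6 and 27.5 CPM in healthy blood, 6.29, 4.68 and 5.69 CPM in LLC blood and 179.4, 97 and 84.6 CPM in LLC tumor. All 3 copies rose in the tumor over healthy blood, by 1.39 (Bcl2a1a), 2.58 (Bcl2a1b) and 1.52 (Bcl2a1d) on the log2 scale.

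Chemokine genes gave 6 members of 26 in their list. Ccl3 and Ccl4, which encode macrophage inflammatory proteins, lie side by side with Ccl6 on chromosome 11. Ccl3 was at 16.6, 16.2 and 18.9 CPM in healthy blood, 8.32, 1.66 and 1.69 CPM in LLC blood and 264.5, 124.7 and 173.3 CPM in LLC tumor. Ccl4 was at 4.72, 6.08 and 6.50 CPM, then 1.11 to 2.01 CPM, then 125.0, 42.5 and 60.8 CPM. Both rose in the tumor over healthy blood, by 3.67 ± 0.51 (adjusted p = 0.00018) and 3.96 ± 0.47 (adjusted p = 6.16e-05) on the log2 scale, and for both LLC tumor 1 was the highest library; without it the value of Ccl4 was 3.21. Their neighbour Ccl6 was at 1160, 1157 and 1154 CPM, then 722.8, 542.5 and 594.0 CPM, then 1724, 1234 and 1114 CPM, overlapped healthy blood in the tumor and was not called (0.44 ± 0.23, adjusted p = 0.112), although it was without LLC tumor 3 (adjusted p = 0.043) and with DESeq2. Its adjusted p ranged from 0.043 to 0.619 over all alternatives.

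Cxcl10, an interferon- and NF-kB-induced attractant of activated T cells, had the largest relative fall in blood among the chemokine members. Its level was 28.5, 31.5 and 30.0 CPM in healthy blood, 6.50, 3.53 and 3.82 CPM in LLC blood and 227.5, 40.1 and 85.1 CPM in LLC tumor (log2 fold change of tumor over healthy blood 2.24 ± 0.58, adjusted p = 0.00739). Cxcl16, a transmembrane chemokine, was at 5.97, 7.16 and 7.99 CPM, then 4.21, 2.39 and 3.53 CPM, then 125.9, 70.2 and 57.2 CPM. Pf4, a chemokine of platelets that macrophages also express, was at 3.36, 4.85 and 2.76 CPM, then 0.669, 0.968 and 0.435 CPM, then 110.7, 119.1 and 70.5 CPM. All 3 genes stood above healthy blood in every tumor library. Without LLC tumor 1 the log2 fold changes of Cxcl10 and Cxcl16 over healthy blood were 1.12 and 3.22. Of the other 10 platelet markers, summed at 6.93 to 22.6 CPM in healthy blood, 5.75 to 9.06 CPM in LLC blood and 68.8 to 112.3 CPM in LLC tumor, the tumor sum was mostly Ppbp (66.0 to 110.4 CPM), while Gp9 was at 0.259 CPM or less in all tumor libraries.

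Of the 23 chemokine genes tested, the 6 members included, 9 were called lower and 0 higher in LLC blood than in healthy blood, and 19 higher and 2 lower in LLC tumor than in healthy blood. In blood 14 were not called. The medians of the chemokine genes were -1.31 and 4.96 on the log2 scale, against -0.01 and -0.0 over all genes tested. The members, chosen for this course, enter the counts and both chemokine medians.

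The cytokine members were Tnf, Lif and Csf1, of 37 cytokine and growth factor genes. Tnf, the principal inflammatory cytokine of monocytes, was at 19.3, 21.8 and 23.7 CPM in healthy blood, 9.47, 7.75 and 7.15 CPM in LLC blood and 129.7, 27.7 and 46.6 CPM in LLC tumor (log2 fold change over healthy blood 1.92 ± 0.53, adjusted p = 0.0102). Lif, an interleukin-6 family cytokine, was at 3.36, 3.01 and 3.56 CPM, then 2.39, 1.31 and 1.06 CPM, then 92.4, 51.1 and 64.2 CPM (4.6 ± 0.34, adjusted p = 3.57e-06). Csf1, the growth factor of macrophages, was at 9.08, 9.15 and 6.19 CPM, then 5.16, 3.80 and 3.57 CPM, then 29.0, 54.0 and 56.4 CPM (2.66 ± 0.22, adjusted p = 7.48e-06). LLC tumor 1 was the highest tumor library for Tnf and Lif and the lowest for Csf1. Without LLC tumor 1 the log2 fold change of Tnf over healthy blood was 0.83. Over the 30 genes of this list that were tested, 8 were called lower and 0 higher in LLC than in healthy blood. Of all genes tested, 9.61% were called lower there. In LLC tumor against healthy blood, 18 were called higher and 8 lower, where 33.5% of all genes tested were called higher and 33.0% lower. Tnf, Lif and Csf1, chosen for this course, enter these counts of the list.

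Of 50 type I interferon-stimulated genes 1 is a member (2.0%, against 1.2% of all genes tested), namely Rsad2, which encodes the antiviral enzyme viperin. It was at 81.3, 69.2 and 83.7 CPM in healthy blood, 49.0, 28.5 and 31.8 CPM in LLC blood and 468.7, 87.8 and 215.8 CPM in LLC tumor. Rsad2 is also the 1 gene of the 49 tested that was called higher in LLC tumor than in healthy blood (log2 fold change 1.98 ± 0.55, adjusted p = 0.0102). Of the 49, 32 were called lower (median -0.88). Over all genes tested, 33.5% were called higher and 33.0% lower. The tumor values of Rsad2 spread over more than a 5-fold range, with LLC tumor 2 just above healthy blood. Without LLC tumor 1 the log2 fold change was 1.01.

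The interferon-gamma-induced GTPases Gbp4 and Gbp6, and the class I genes H2-Q5 and H2-Q8, were lowered in blood and reached the healthy range or lay under it in the tumor. Gbp6 was at 16.5, 38.9 and 29.1 CPM in healthy blood, 5.90, 5.90 and 6.51 CPM in LLC blood and 22.4, 9.92 and 13 CPM in LLC tumor. H2-Q8 was at 13.1, 23.7 and 22.2 CPM, then 3.78, 2.30 and 3.19 CPM, then 18, 5.84 and 9.73 CPM. The 4 genes overlapped healthy blood in the tumor and none was called (log2 fold changes 0.35, -0.68, 0.30 and -0.58 for Gbp4, Gbp6, H2-Q5 and H2-Q8). Their counts were not whole in all 9 libraries, since each has close relatives, and LLC tumor 1 was the highest tumor library for each. The lists of MHC class I and class II presentation, which hold neither H2-Q5 nor H2-Q8, gave no member.

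The promoters of Cxcl10 (chr5:92348890-92349139, minus strand) and Rsad2 (chr12:26456453-26456702, minus strand) are shown because they are the members in which an interferon-stimulated response element and an AP-1 match stand in the same window. In Cxcl10 the interferon element starts 213 bases before the start, NF-kB matches at 159 and, overlapping each other, at 104 and 103, and AP-1 at 74. In Rsad2 the interferon element lies at 120, AP-1 at 87 and a TATA match at 10 bases.
Cxcl10: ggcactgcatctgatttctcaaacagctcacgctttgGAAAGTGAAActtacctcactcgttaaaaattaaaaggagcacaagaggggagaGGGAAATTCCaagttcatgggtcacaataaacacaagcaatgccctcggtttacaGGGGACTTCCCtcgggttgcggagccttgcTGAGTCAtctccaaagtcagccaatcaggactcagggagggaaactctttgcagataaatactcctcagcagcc
Rsad2: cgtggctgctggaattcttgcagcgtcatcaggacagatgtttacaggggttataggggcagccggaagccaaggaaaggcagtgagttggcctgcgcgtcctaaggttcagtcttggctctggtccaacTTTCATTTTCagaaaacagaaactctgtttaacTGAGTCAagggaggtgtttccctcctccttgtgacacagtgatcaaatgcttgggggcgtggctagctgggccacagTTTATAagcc

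Genes known from tissue macrophages differed in how far the tumor stood above healthy blood. C1qa, C1qb and C1qc encode the chains of complement C1q and lie within 18719 bases of each other on chromosome 4 (chr4:136880126-136898844, GRCm38.p6). C1qa was at 10.7, 8.42 and 3.13 CPM in healthy blood, 2.01, 1.38 and 1.88 CPM in LLC blood and 192.1, 245.1 and 136.4 CPM in LLC tumor, a mean 25.8 times that of healthy blood. C1qb and C1qc reached 21.9 and 21.2 times. All 3 were called higher than in healthy blood (C1qa log2 fold change 4.87 ± 0.39, adjusted p = 5.68e-06), and healthy blood 3 held the lowest healthy value of each.

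Mrc1, the mannose receptor CD206, was at 26.4, 16.7 and 22.5 CPM in healthy blood, 8.42, 6.29 and 6.13 CPM in LLC blood and 395.6, 496.3 and 282.0 CPM in LLC tumor. Stab1, the scavenger receptor stabilin-1, was at 11.6, 4.67 and 4.84 CPM, then 3.73, 4.01 and 2.32 CPM, then 356.7, 455.4 and 365.2 CPM. Ms4a7, a membrane protein of macrophages, was at 8, 7.25 and 7.97 CPM, then 4.69, 4.84 and 4.35 CPM, then 72.0, 51.2 and 36.4 CPM. The 3 genes rose in the tumor over healthy blood by 4.34 ± 0.26, 5.98 ± 0.34 and 2.99 ± 0.29 on the log2 scale (adjusted p = 8.96e-07, 7.65e-07 and 1.65e-05).

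Apoe and Axl behaved otherwise. Apoe, the lipid-carrying apolipoprotein, was at 1113, 1041 and 923.0 CPM in healthy blood, 324.6, 360.7 and 304.9 CPM in LLC blood and 963.9, 646.5 and 536.9 CPM in LLC tumor, with overlap and a log2 fold change over healthy blood of -0.30 ± 0.25 (adjusted p = 0.307). Axl, a receptor tyrosine kinase for the uptake of dying cells, was at 135.4, 119.7 and 130.6 CPM, then 52.4, 38.5 and 51.0 CPM, then 145.1, 150.4 and 168.2 CPM, a small rise over healthy blood (0.44 ± 0.13, adjusted p = 0.0116) that was not called without healthy blood 2 or with library totals only. Cd36, a receptor for lipids and oxidized lipoproteins, was at 38.4, 40.9 and 48.7 CPM, then 9.28, 6.36 and 7 CPM, then 49.3, 45.5 and 26.7 CPM. It overlapped healthy blood in the tumor and was not called (0.12 ± 0.25, adjusted p = 0.694), after 1 of the largest relative falls in blood.

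The 9 other mature macrophage markers, without the members Apoe, Mrc1 and the C1q genes, were summed at 485.5 to 501.3 CPM in healthy blood, 498.0 to 547.2 CPM in LLC blood and 1326 to 1662 CPM in LLC tumor. The ranges of the blood groups for this sum overlapped.

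Lineage transcription factors among the members were Maf, Id2, Ets1 and Ets2, of 36 in the list. Maf, a macrophage factor, was at 59.1, 54.7 and 50.3 CPM in healthy blood, 31.7, 33.1 and 37.7 CPM in LLC blood and 193.4, 166.9 and 158.6 CPM in LLC tumor (log2 fold change over healthy blood 1.85 ± 0.16, adjusted p = 7.34e-06). Ets2 was at 16, 16.3 and 15.0 CPM, then 6.69, 4.77 and 7.24 CPM, then 493.3, 326.6 and 314.7 CPM (4.79 ± 0.28, adjusted p = 8.83e-07). Ets1, a factor best known from lymphocytes, was at 18, 59.1 and 48.3 CPM, then 6.79, 6.92 and 8.89 CPM, then 134.2, 138.1 and 146.8 CPM (1.91 ± 0.34, adjusted p = 0.000859). Healthy blood 1, the lowest healthy library for Ets1, also had the lowest summed NK cell markers (266.9 CPM against 393.8 and 590.4 CPM) and T cell markers (68.9 CPM against 183.0 and 277.3 CPM) of its group. The part of lymphocyte RNA in the healthy blood level was not tested, and in LLC tumor, where Ets1 was highest, Cd3e was at 0.271 CPM or less and Ncr1 at 0.0903 CPM or less.

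Il7r, the interleukin-7 receptor, is the 1 member among the T cell markers. It was at 1.93, 7.19 and 2.64 CPM in healthy blood, 1.24, 0.415 and 0.580 CPM in LLC blood and 121.4, 103.5 and 99.5 CPM in LLC tumor, a rise over healthy blood of 4.96 ± 0.43 on the log2 scale (adjusted p = 8.87e-06). The other T cell markers were summed at 5.54 to 8.64 CPM in the tumor libraries, which is less than in either blood group. Without healthy blood 2, the highest healthy library, the log2 fold change of Il7r was 5.71.

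Heat shock members were Hspa1b, Dnaja1 and Dnajb1, of 27 chaperone genes. Hspa1b, the stress-inducible HSP70, was at 1211, 657.4 and 574.0 CPM in healthy blood, 495.1, 27.4 and 22.3 CPM in LLC blood and 1748, 665.0 and 918.7 CPM in LLC tumor; the groups of tumor and healthy blood overlapped, and their difference was not called (log2 fold change 0.69 ± 1.02, adjusted p = 0.574). LLC blood 1 lay nearer to the lowest healthy library than to the other LLC blood libraries. Its near-identical neighbour Hspa1a was at 419.2, 17.4 and 10.9 CPM in LLC blood with a lowest healthy value of 417.9 CPM, which kept it out of the set. Reads of the pair cannot be separated with certainty, and Hspa1b counts were not whole in 8 libraries. Over the 27 chaperones, 2 were called lower in LLC than in healthy blood, against 9.61% of all genes tested, 1 higher, and 24 were not called. Against healthy blood, 12 of the 27 were called higher and 4 lower in LLC tumor, where 33.5% of all genes tested were called higher and 33.0% lower.

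LLC blood 1 set the limits of the set in other genes as well. It was the highest LLC blood library for 94 of 148 members (63.5%), against 38.3% of all genes tested, for 14 of 15 AP-1 genes and for 18 of 23 NF-kB genes. It stood at least 2 times above the mean of the other LLC blood libraries, on CPM + 1, for 7 members (1.05% of all genes tested): Jun, Hspa1b, Ccl3, Egr1, Rgs1, Zfp36 and Ier5. The same library held Col1a1 at 212.2 CPM and Col1a2 at 130.6 CPM, against 0.145 CPM or less in LLC blood 2 and 3; whether the 2 features have a common source was not tested. Without LLC blood 1 the rule gave 214 genes, of which 141 are members, and the 73 that joined included Fos, Fosb, Junb, Atf3, Dusp1, Ier2, Hspa1a, Nfkbiz and Cxcl2.

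Members also differed between the tumor libraries. LLC tumor 1 was the highest tumor library for 81 members (54.7%), against 21.1% of all genes tested. It stood at least 2 times above the mean of the other tumor libraries for 12 members (0.648% of all genes tested), among them Tnf, Tnfaip3, Cd83, Cd69, Ccl4, Cxcl10, Rsad2 and Rgs1, and at most 0.5 times as high for 25 (10.4% of all genes tested). The latter included Nedd4, a ubiquitin ligase, at 101.5, 485.1 and 476.8 CPM in LLC tumor 1, 2 and 3, the thrombin receptor F2r at 15.9, 65.4 and 69.2 CPM, Tgfbr3 (betaglycan) at 20, 102.3 and 100.9 CPM, Ccnd1 (cyclin D1) at 27, 69.9 and 55.9 CPM and Pear1 at 2.08, 18.4 and 17.7 CPM. Summed fibroblast markers were also lowest in LLC tumor 1, at 1032, 3874 and 4375 CPM, with Col3a1 at 713.3, 2801 and 3099 CPM. The part of fibroblast RNA in these 25 members was not tested.

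**Figure D3:**
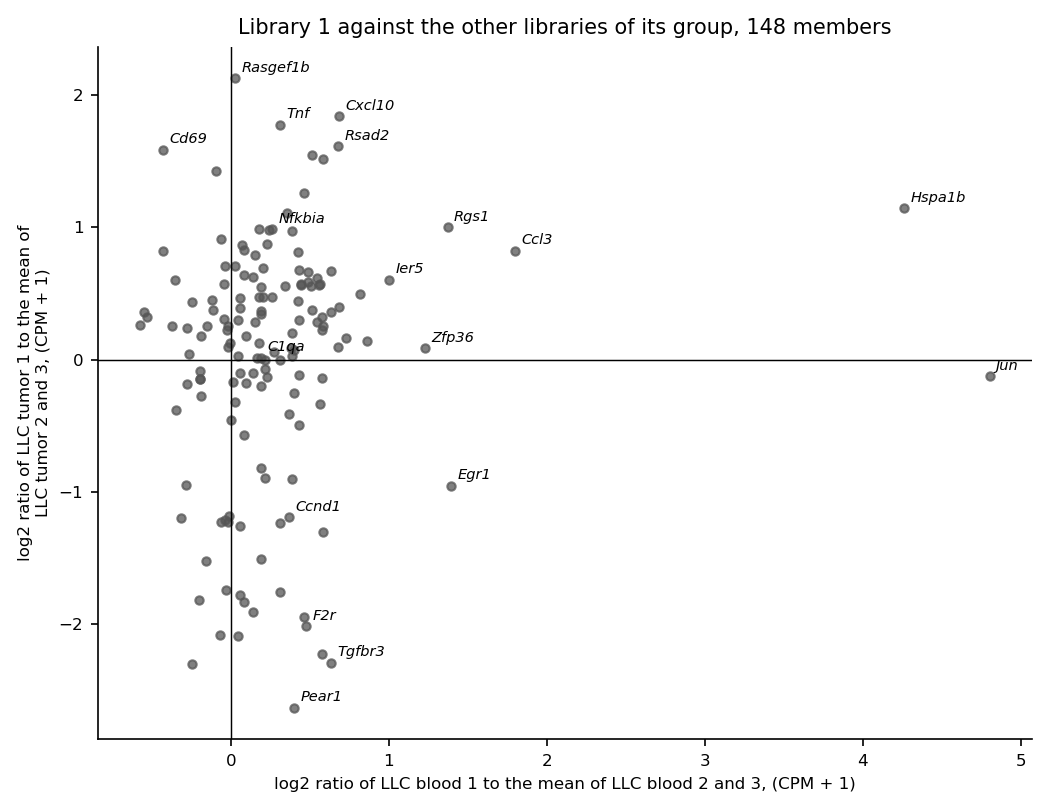
Each point is 1 of 148 members; the horizontal axis is the log2 ratio of LLC blood 1 to the mean of LLC blood 2 and 3 and the vertical axis the log2 ratio of LLC tumor 1 to the mean of LLC tumor 2 and 3, both on CPM + 1. Jun and Hspa1b lie far to the right, and the members below -1 on the vertical axis are the 25 that were at most 0.5 times as high in LLC tumor 1.

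The members with the largest fold over healthy blood were Rgs1, Sdc4, Nedd4, Stab1, Serpinb2 and Irg1. Rgs1, a brake on chemokine receptor signalling, was at 6.07, 4.24 and 5.89 CPM in healthy blood, 3.25, 0.415 and 0.869 CPM in LLC blood and 890.0, 470.4 and 419.0 CPM in LLC tumor, with a tumor mean 109.8 times that of healthy blood (log2 fold change 7.01 ± 0.55, adjusted p = 5.01e-06). Sdc4, a heparan sulfate proteoglycan, was at 2.64, 3.93 and 2.27 CPM, then 1.34, 0.277 and 0.628 CPM, then 304.5, 218.0 and 243.1 CPM (6.63 ± 0.33, adjusted p = 4.05e-07). Serpinb2, a plasminogen activator inhibitor, and Irg1, the enzyme that makes itaconate, had healthy values of at most 2.58 and 2.33 CPM and tumor means 29.5 and 28.1 times those of healthy blood. Without LLC tumor 1 the log2 fold changes of Rgs1 and Irg1 were 6.42 and 4.42. Without healthy blood 2 those of Serpinb2 and Irg1 were 5.83 and 5.64. Such low blood levels rest on few counts, and none of the members was at 3 counts or fewer in every LLC blood library.

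At the other end stood Eno1b, an Eno1-like enolase gene whose counts were not whole in 8 libraries. It was at 144.7, 145.3 and 159.9 CPM in healthy blood, 25.9, 22.1 and 22.9 CPM in LLC blood and 66.2, 50.3 and 53.3 CPM in LLC tumor. It had the lowest blood ratio of all members, 0.163, and was the 1 member called lower in LLC tumor than in healthy blood (log2 fold change -1.21 ± 0.17, adjusted p = 0.000174). Reads shared with near-identical enolase copies make its level uncertain.

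**Figure D4:**
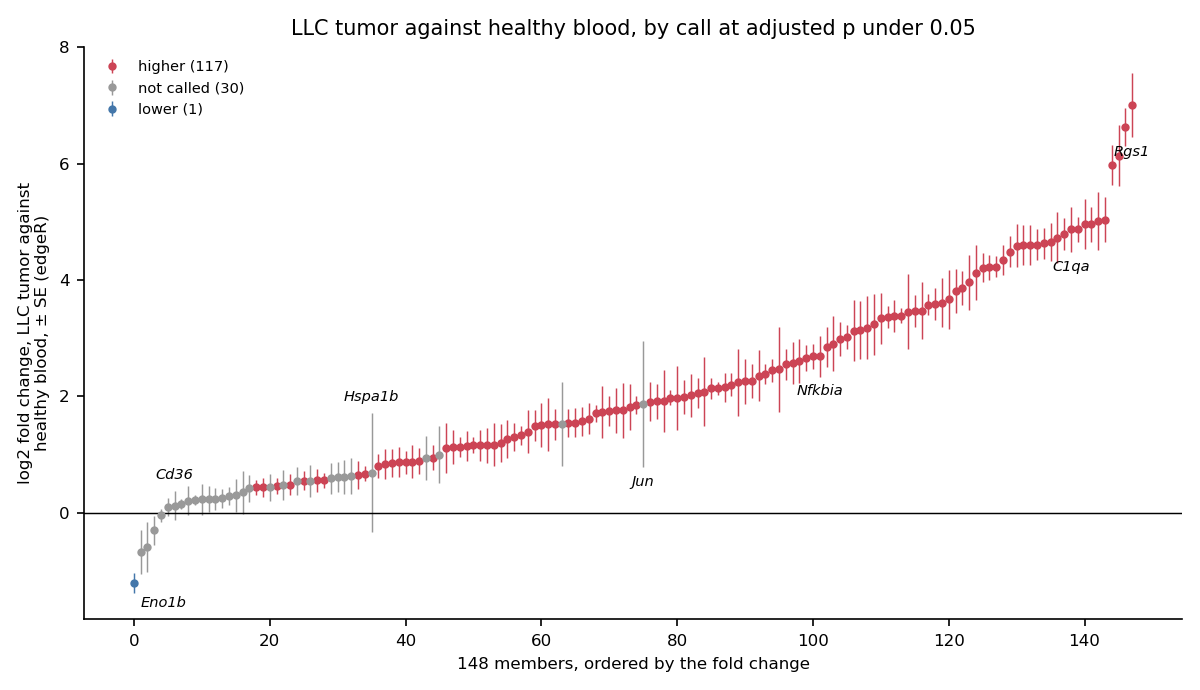
The log2 fold change of LLC tumor against healthy blood with its SE (edgeR) for the 148 members, in order; red points (117) were called higher, grey points (30) were not called and the blue point, Eno1b, was called lower. Jun and Hspa1b have the widest error bars among the uncalled members.

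Members just inside and just outside each limit lay close together. The tumor mean was 10.1 CPM for Jade2 and 10.2 CPM for Prkca inside, and 9.75 CPM for Tnip3 and 9.43 CPM for Mrps6 outside. The ratio of LLC blood to healthy blood was 0.6662 for Id2 and 0.6638 for Pcbp4 inside, and 0.6704 for Rhoh and 0.6716 for Igf2r outside. The ratio of LLC tumor to LLC blood was 1.5327 for Btg2 and 1.5554 for Dnaja1 inside, and 1.4967 for H2-Q4 and 1.3873 for Jup outside.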

How the data were processed

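RNA-seq of 9 libraries was used; the other 22 of the 31 samples were not analysed here. The authors deposited estimated counts (expected counts, not normalized), 8.56% to 9.73% of which per library are not whole, and a CPM table of 10693 genes. The submitters' processing notes name Trim Galore, cutadapt 3.4, STAR 2.6.1d, Salmon 1.9.0, edgeR and mm10 without saying which made which file. Blood columns carry the letters BM, read as blood monocyte because the titles name blood; the tables do not decide between this and bone marrow. All values per library are CPM over all rows, computed here from the deposited counts; every value of the authors' CPM table was a whole number of reads (tolerance 0.01 read) equal to the rounded count.

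Rounded counts were fitted with edgeR 4.0.16 (R 4.3.3; TMM, filterByExpr, quasi-likelihood, group as the only term, all 9 libraries), with adjustment by Benjamini-Hochberg over 12337 genes. Every adjusted p in the text is from this model unless another is named. The test was checked on simulated data. The labels do not say whether equal replicate numbers mark paired samples. Deviations of same-numbered libraries from their group means correlated at 0.297, 0.181 and 0.073 in blood, and those of differently numbered ones at -0.308 to 0.165. For LLC tumor against LLC blood the same-numbered correlations were -0.078, 0.12 and -0.137. The numbers were not used as pairs in the main fit. DESeq2 1.42.0, limma-voom 3.58.1, other scalings, filters and limits of the rule, and leaving out each library were the alternatives; a fit on reads recovered from the CPM table was added after seeing the data.

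The members and the gene, marker and motif lists were chosen with earlier results of these data known. Named are, by rule, the 8 members with the lowest blood ratio, the 8 with the highest tumor ratio, the 8 with the highest mean, up to 3 of each list, the 6 highest and 6 lowest against healthy blood and the 2 genes on each side of every limit; Nab2, Plk3, Gadd45g, Nr4a3, Pim3, Sik1, Traf1, Ccl4, Cxcl16, H2-Q5, C1qb, Mrc1, Ms4a7, Axl, Pear1, the genes of the closing observations other than Cish, and the non-members Fos and Hspa1a were chosen after their values were seen. All 148 members matched RefSeq (GRCm38.p6), 6 by an older symbol. Promoters of 42 members were not used here.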

Additional observations from a re-analysis of the deposited data

How the results depend on the processing

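Members called higher in LLC tumor than in LLC blood numbered 145 to 148 in the fits that held all members (139 of 139 with reads recovered from the CPM table, and 112 of 112 with whole counts). The size of the set depends on its limits: 61 genes with limits of 0.5 and 2, 298 with looser limits, 91 with 5 CPM added in the ratios, and 144 to 214 without a library each; 102 members stayed in the set whichever library was left out. Members called lower in LLC blood were 44 at an adjusted p under 0.01 and 51 to 145 without a library each: 51 without LLC blood 2, 54 without LLC blood 3 and 145 without LLC tumor 1. Members called lower in tumor than in healthy blood were 3 with library totals only, 0 among members with whole counts (edgeR) and 1 to 4 without a library each (4 without LLC tumor 1, 2 without healthy blood 1). Members not called there were 47 at an adjusted p under 0.01 and 13 among those with whole counts, where only 112 members are counted. With replicate number as a block, 116 members were called lower in blood, 148 higher in tumor than LLC blood, and 119 higher than healthy blood. The labels do not say whether that number pairs the samples. Library totals only moved the median of all genes to -0.17 for tumor against healthy blood, and that of the members to 1.66.

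Against healthy blood, the log2 fold change turned sign for Btg2 (-0.00 with upper-quartile factors, -0.08 with library totals, -0.06 to 0.20 without a library each), Cd36 (-0.08 with library totals, -0.20 to 0.38 without a library each), Dnaja1 (-0.08 to 0.38), Fpr2 (-0.26 to 0.47), Gbp4 (-0.05 to 0.73), H2-Q5 (-0.13 to 0.55) and Klf16 (0.01 with median-ratio factors and with DESeq2, -0.10 to 0.03 without a library each). The sign turned without LLC tumor 1, or for Klf16 without LLC tumor 3. None of these was called as reported. Of the called genes, Metrnl lost its call in 12 of 18 alternatives, Dnajb1 in 5, Sik1 in 3, Axl in 2 and Pear1 and Eif1 in 1 each. Jun gained a call without LLC blood 1 and with only the 6 libraries compared, Jade2 in 6 alternatives, Ier5 in 3, Ccl6 and Cd69 in 2 each, and Apoe, Gbp6 and H2-Q8 were called lower without LLC tumor 1. Over all alternatives of the named members, 1487 values kept direction and side of the threshold, 24 lost their call, 21 gained one and 12 turned sign. The causes were not tested. Healthy means were under 10 CPM for 58 members; how the calls depend on depth was not tested.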

Other observations

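Members in no list numbered 94 of 148. Among them, Ralgds and Rgl1, exchange factors for Ral, were at 3.93, 5.28 and 4.97 CPM and at 5.86, 5.71 and 5.46 CPM in healthy blood, at 1.43, 3.04 and 1.98 CPM and at 4.59, 1.73 and 2.41 CPM in LLC blood, and at 89.1, 66.5 and 75.3 CPM and at 129.9, 116.5 and 118.6 CPM in LLC tumor. Both stood far above either blood group in every tumor library. Dok2, an adaptor that dampens Ras signalling in myeloid cells, was at 16.4, 20 and 23.4 CPM, then 10.6, 13.6 and 12.6 CPM, then 201.9, 173.2 and 167.6 CPM. Ehd1, which recycles endocytosed receptors, was at 53.4, 61.2 and 66.7 CPM, then 27.6, 18.3 and 18.2 CPM, then 393.3, 290.7 and 336.5 CPM, and Kcnn4, a calcium-activated potassium channel, at 6.22, 6.45 and 8.34 CPM, then 3.83, 4.08 and 4.93 CPM, then 79.8, 73.1 and 68.0 CPM. These genes were chosen after their values were seen.

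Cish, a feedback inhibitor that STAT5 induces, was at 1.86, 2.09 and 3.68 CPM in healthy blood, 1.24, 1.11 and 1.21 CPM in LLC blood and 40.4, 42.4 and 44.4 CPM in LLC tumor, where its libraries were close together. Clec4d, a C-type lectin of myeloid cells, was at 23.7, 28.8 and 19.9 CPM, then 15.1, 16.1 and 15.2 CPM, then 663.3, 441.3 and 448.4 CPM. Etv5, an ETS factor known as a target of ERK signalling, was at 3.72, 2.95 and 2.58 CPM, then 1.82, 1.45 and 1.55 CPM, then 53.7, 46.3 and 52.4 CPM, and it is a member although none of the 16 listed MAP kinase phosphatases and ERK feedback genes is. Of those 16, 14 were called higher in LLC tumor than in LLC blood (29.6% of all genes tested). In LLC against healthy blood, 4 were called lower (9.61% of all genes tested).

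By position, 16 members fall in 7 groups of neighbours within 100000 bases (GRCm38.p6). Besides the C1q and Ccl genes these include F2r and F2rl1, the receptors for thrombin and for trypsin-like proteases, on chromosome 13. F2rl1 was at 0.858, 0.922 and 0.920 CPM in healthy blood, 0.0956, 0.208 and 0.241 CPM in LLC blood and 3.97, 12.2 and 14.3 CPM in LLC tumor, with the same low LLC tumor 1 as F2r.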
